A study of Mus musculus with 2 samples.

Results

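The genes described here are 7 members of the let-7 microRNA (miRNA) family: Mirlet7a-1, Mirlet7a-2, Mirlet7c-1, Mirlet7c-2, Mirlet7f-1, Mirlet7f-2 and Mir98. They were chosen by their gene names in GENCODE release M21, out of 2202 miRNA genes counted, and all 7 had reads in both libraries. The first 6 form 3 pairs of genes that encode the same mature 5′ arm, and Mir98 is a single gene that lies beside Mirlet7f-2. The tissue, labelled as layer of hippocampus, came from female B6CASTF1/J mice, the first-generation offspring of C57BL/6J crossed with CAST/EiJ. The mice were aged 36 days and given no treatment that the labels name. Both libraries, biological replicates 1 and 2, were made from total RNA with inserts under 30 bases and formed a single group. The labels give them separate biosamples but the same donor entry, so whether they came from separate animals is not known, and the p-values below set differences between these 2 libraries against counting error alone.

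let-7 miRNAs repress messenger RNAs through a seed at their 5′ end, rise as cells stop dividing and differentiate, and are abundant in adult brain. They are cut from a hairpin precursor by Drosha and Dicer, which leaves a 5p arm, the usual guide strand, and a 3p arm from the other side of the stem. LIN28 proteins can hold back this maturation by binding the precursor's loop, in which a GGAG motif is a known contact. Several let-7 miRNAs are encoded by more than one gene, and a read of such a miRNA fits each of its genes equally well.

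The mature 5p arms of the 7 genes are shown because they fix which reads can be told apart. They comprise 4 sequences (RefSeq, GRCm38.p6), with the seed, bases 2 to 8, in capitals:
mmu-let-7a-5p: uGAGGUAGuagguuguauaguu
mmu-let-7c-5p: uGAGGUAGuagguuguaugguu
mmu-let-7f-5p: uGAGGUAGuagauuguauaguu
mmu-miR-98-5p: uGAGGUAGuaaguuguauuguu
All 4 share 1 seed, which 11 of 1679 mature names in the RefSeq table carry. Counted from 1 at the 5′ end, let-7c differs from let-7a by A19G, let-7f by G12A, and miR-98 by G11A and A19U.

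The 3p arms fall into 6 sequences, again with the seed in capitals:
mmu-let-7a-1-3p: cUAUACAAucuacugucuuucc
mmu-let-7a-2-3p: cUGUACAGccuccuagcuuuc
mmu-let-7c-1-3p: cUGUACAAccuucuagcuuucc
mmu-let-7c-2-3p: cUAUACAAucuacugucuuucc
mmu-let-7f-1-3p: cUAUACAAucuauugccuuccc
mmu-let-7f-2-3p: cUAUACAGucuacugucuuuc
mmu-miR-98-3p: cUAUACAAcuuacuacuuuccu
By seed they form 4 groups, with let-7a-1-3p, let-7c-2-3p, let-7f-1-3p and miR-98-3p in the same one. let-7a-1-3p and let-7c-2-3p are identical over 22 bases, although their genes lie on different chromosomes and their 5p arms differ. let-7f-2-3p differs from that shared sequence at 1 of 21 positions.

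The hairpins of the 7 genes show where its reads could be assigned to a single gene. Arms are in capitals, and the lower-case bases between them are the loop side of the precursor:
Mirlet7a-1: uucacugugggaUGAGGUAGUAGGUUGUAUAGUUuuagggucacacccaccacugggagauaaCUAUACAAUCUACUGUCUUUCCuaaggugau
Mirlet7a-2: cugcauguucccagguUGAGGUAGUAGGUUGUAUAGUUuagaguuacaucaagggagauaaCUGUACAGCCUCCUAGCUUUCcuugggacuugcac
Mirlet7c-1: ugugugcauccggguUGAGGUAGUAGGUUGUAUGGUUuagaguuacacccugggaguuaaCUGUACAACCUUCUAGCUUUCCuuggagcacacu
Mirlet7c-2: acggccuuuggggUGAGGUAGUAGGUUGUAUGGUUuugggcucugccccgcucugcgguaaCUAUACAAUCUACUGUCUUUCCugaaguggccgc
Mirlet7f-1: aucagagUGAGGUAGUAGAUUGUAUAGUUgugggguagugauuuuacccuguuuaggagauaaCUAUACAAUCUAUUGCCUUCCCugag
Mirlet7f-2: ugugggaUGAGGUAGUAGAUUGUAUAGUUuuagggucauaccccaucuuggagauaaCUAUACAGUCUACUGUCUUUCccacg
Mir98: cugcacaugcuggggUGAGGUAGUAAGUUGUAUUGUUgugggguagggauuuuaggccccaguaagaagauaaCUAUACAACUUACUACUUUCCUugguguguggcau
Over the hairpins of all 2202 counted genes, a read from the annotated start of let-7a-5p or let-7c-5p matched a single hairpin only from a length of 24 bases, and one of let-7f-5p from 23 bases. Mature let-7a, let-7c and let-7f reads of 22 bases therefore matched 2 hairpins each. A read of miR-98-5p was its own from 11 bases. On the 3p side, the shared arm of Mirlet7a-1 and Mirlet7c-2 needed 24 bases, whereas the annotated 3p arms of the other 5 genes each occurred in 1 hairpin. Mirlet7a-1 and Mirlet7c-2 were thus the members with both annotated arms shared, and Mir98 was the member with neither shared. The search covered the sense strand of annotated hairpins, and other places in the genome were not analysed here.

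**Figure D1:**
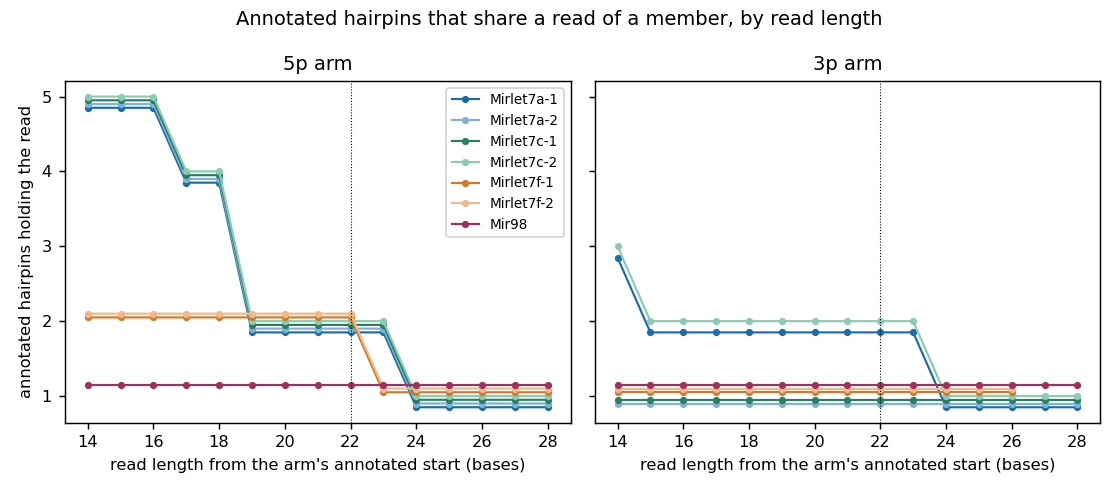
Number of annotated miRNA hairpins (y axis, lines offset slightly for visibility) that hold a read of a given length in bases (x axis) counted from the annotated start of the 5p arm (left) or the 3p arm (right) of each member. The dotted line marks 22 bases, at which 5p reads of the 6 copied genes still fit 2 hairpins and reads of Mir98 fit 1.

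The GGAG motif, searched on the RNA strand, occurred between the arms in 5 of the 7 hairpins and was not found in Mirlet7c-2 or Mir98. The same 4 letters occurred anywhere in the hairpin in 37.2% of the 2202 counted genes. GC content ran from 39.3% in Mirlet7f-1 to 53.7% in Mirlet7c-2. The folding energy predicted by RNAfold ran from -39.0 kcal per mol for Mirlet7f-2 to -48.9 kcal per mol for Mir98.

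The counts were reads per hairpin gene in the sense orientation, which does not tell the 2 arms apart. Reads assigned to miRNA genes totalled 2928141 in replicate 1 and 3644157 in replicate 2, and levels are given as counts per 1000000 of those reads (CPM), with mean ± SD over n = 2 libraries. Reads with several places in the genome were counted apart from all genes and made up 38.9% and 45.8% of the reads in the count tables of replicates 1 and 2. They were 72.9 and 107.6 times as many as the reads assigned to the 7 genes together. The files do not say which miRNAs these reads belong to, so a member's level is that of its singly placed reads and not of its mature miRNA. Intervals cover counting error only. Of 10 neuronal miRNA genes looked up as a check of the tissue, 6 had at least 10 reads in both libraries, with 9112 and 12631 CPM for Mir137. Mir124a-1 had 8 reads in each library, Mir124a-2 had 4 and 0 and Mir124a-3 had 4 and 1. These, too, are singly placed reads and not levels of a mature miRNA. Of 6 muscle and liver genes, Mir1a-1, Mir133a-1 and Mir133a-2 had no read in either library and Mir1a-2 had 3 and 1, but Mir206 had 685 and 633 reads (234 and 174 CPM, near the level of the lowest member) and Mir122 had 111 and 160. Of 5 hindbrain and spinal cord genes, Mir196a-1 had no read and Mir196a-2 had 7 and 10, while Mir10a had 66 and 64, Mir10b had 110 and 55, and Mir196b had 63 and 53.

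Together the 7 genes held 51250 reads in replicate 1, 1.75% of those assigned, and 44677 in replicate 2, 1.23% of those assigned. That was 4.12% and 3.42% of the reads of the 12 let-7 genes compared here, the others being the 5 single-copy genes Mirlet7b, Mirlet7d, Mirlet7e, Mirlet7g and Mirlet7i. In these singly placed reads, every member lay below every single-copy gene in both libraries. For all members but Mir98, 22-base reads of the mature 5p arm matched 2 hairpins. The part of this in the shares and the order was not tested, so they do not rank the mature miRNAs. The lowest of the single-copy genes, Mirlet7e, was at 28192 and 27320 CPM, and the highest member value, that of Mir98 in replicate 1, was 8654 CPM.

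Mir98, which encodes the let-7 relative miR-98, had the highest level of the 7, with 25341 reads (8654 CPM) in replicate 1 and 16562 reads (4545 CPM) in replicate 2 (mean 6600 ± 2906 CPM). It held 49.5% of the members' reads in replicate 1 and 37.1% in replicate 2. Mirlet7f-2, its neighbour, followed with 12152 reads (4150 CPM) and 13084 reads (3590 CPM), a mean of 3870 ± 396 CPM. Both libraries of Mir98 were above both of Mirlet7f-2, but the distance between the means was smaller than the SD of Mir98.

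The let-7c genes came next. Mirlet7c-2 had 7891 reads (2695 CPM) and 8492 reads (2330 CPM) in replicates 1 and 2, a mean of 2513 ± 258 CPM. Mirlet7c-1 had 2966 reads (1013 CPM) and 3348 reads (919 CPM), a mean of 966 ± 66.6 CPM. Mirlet7c-2 thus stood above 4 other members. Each of its annotated arms also occurs in another hairpin, and the part of this in its level was not tested.

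The lowest 3 members lay within a narrow range. Mirlet7a-1 had 1238 reads (423 CPM) and 1234 reads (339 CPM), a mean of 381 ± 59.5 CPM. Mirlet7f-1 had 934 reads (319 CPM) and 1050 reads (288 CPM), a mean of 304 ± 21.8 CPM. Mirlet7a-2 had 728 reads (249 CPM) and 907 reads (249 CPM), a mean of 249 ± 0.191 CPM. The order of the 7 was the same in both libraries, and no 2 neighbours in it overlapped. The closest approach was between Mirlet7a-1 in replicate 2 and Mirlet7f-1 in replicate 1, at 339 and 319 CPM. For any single pair of neighbours, 2 values against 2 cannot reach 0.05 in an exact permutation test, and no test was run. Divided by hairpin length, which ran from 83 to 108 bases, the mean CPM gave the same order, from 6111 per 100 bases for Mir98 to 259 per 100 bases for Mirlet7a-2.

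**Figure D2:**
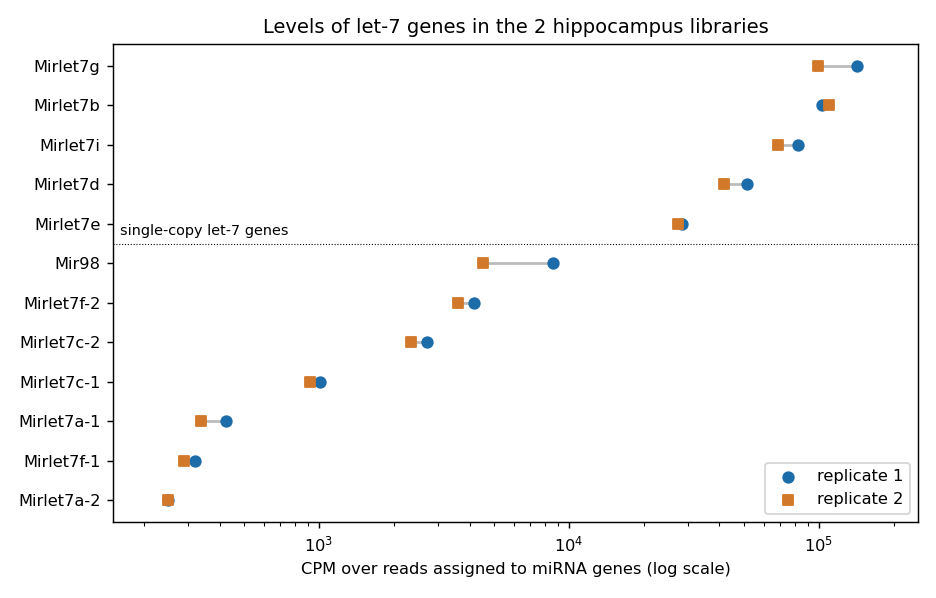
CPM of the 7 members (below the dotted line) and the 5 single-copy let-7 genes (above it) on a log axis, with replicate 1 as circles, replicate 2 as squares and a grey line joining them. In singly placed reads, members span 249 CPM for Mirlet7a-2 to 8654 CPM for Mir98, all under the single-copy genes. Mir98 has the widest gap between its libraries.

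The genes most like Mir98 in level over the 2 libraries, by distance in log2(CPM + 1), were Mir221 (9338 and 5501 CPM), Mir770 (10202 and 6404 CPM) and Mir379 (7339 and 6647 CPM). With 2 libraries this likeness rests on the level and 1 ratio.

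Copies of the same mature miRNA were unequal in singly placed reads, by very different amounts. Of the reads on the let-7f pair, Mirlet7f-1 held 7.14% in replicate 1 (95% binomial interval by the exact Clopper-Pearson method, 6.70% to 7.59%) and 7.43% in replicate 2 (7.002% to 7.87%), so Mirlet7f-2 had 13.01 and 12.5 reads for each of its copy's. On the let-7c pair, Mirlet7c-1 held 27.3% (26.5% to 28.2%) and 28.3% (27.5% to 29.1%). On the let-7a pair the shares were nearest to even, with 63.0% for Mirlet7a-1 in replicate 1 (60.8% to 65.1%) and 57.6% in replicate 2 (55.5% to 59.7%). In all 3 pairs the same copy was the larger in both libraries. How much of this imbalance comes from the copies and how much from which of their reads could be placed once was not tested.

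The shares of 2 of the 3 copy pairs were not shown to differ between the libraries. From replicate 1 to replicate 2 the ratio of Mirlet7c-2 to Mirlet7c-1 changed by a factor of 0.953 (95% interval 0.900 to 1.01; two-sided Fisher's exact test, adjusted p = 0.164). For Mirlet7f-2 over Mirlet7f-1 the factor was 0.958 (0.874 to 1.05; Fisher's exact test, adjusted p = 0.435). The ratio of Mirlet7a-2 to Mirlet7a-1 rose by a factor of 1.25 (1.10 to 1.42; Fisher's exact test, adjusted p = 0.00121). Adjustment was by Benjamini-Hochberg over 12 pairs, the 3 of copies and 9 of cluster mates, and these tests compare 2 libraries and not conditions.

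The 7 genes lie in 5 clusters on the mm10 assembly. On chromosome 13, minus strand, Mirlet7a-1 (48538179 to 48538272), Mirlet7f-1 (48537829 to 48537917) and the single-copy Mirlet7d lie in exons of the noncoding gene 6720427I07Rik. Mirlet7a-1 and Mirlet7f-1 are 261 bases apart and Mirlet7d is 1714 bases beyond. Mirlet7d, at 51741 and 41677 CPM, had 122.4 and 123.1 reads for each read of Mirlet7a-1 and 162 and 145 for each of Mirlet7f-1. These are singly placed reads, and 22-base 5p reads of Mirlet7a-1 and Mirlet7f-1 matched 2 hairpins each. The part of this in the size of the ratios was not tested. The ratio of Mirlet7d to Mirlet7a-1 changed by a factor of 1.01 between libraries (0.929 to 1.09; Fisher's exact test, adjusted p = 0.904). The ratio of Mirlet7f-1 to Mirlet7a-1 changed by 1.13 (1.00 to 1.27; Fisher's exact test, adjusted p = 0.07997). That of Mirlet7d to Mirlet7f-1 changed by 0.892 (0.816 to 0.974), which passed at an adjusted p of 0.0233 in Fisher's exact test and did not with Holm's adjustment (0.0814).

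On chromosome X, plus strand, Mirlet7f-2 (151912346 to 151912428) and Mir98 (151913214 to 151913321) lie 785 bases apart in introns of Huwe1, which encodes a ubiquitin ligase. A 22-base 5p read of Mirlet7f-2 matched 2 hairpins and that of Mir98 matched 1. The part of this in their read ratio and its change was not tested. In singly placed reads, Mir98 had 2.08 per read of Mirlet7f-2 in replicate 1 and 1.27 in replicate 2. The ratio thus changed by a factor of 0.607 (0.588 to 0.626; Fisher's exact test, adjusted p = 1.87e-211), the widest change among the pairs made up of let-7 genes.

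The other let-7a and let-7c genes sit in clusters of similar make-up. On chromosome 9, plus strand, Mirlet7a-2 (41536716 to 41536811) lies in an intron of the noncoding gene 3110039I08Rik, 5211 bases from Mir100 and 45114 bases from Mir125b-1. On chromosome 16, plus strand, Mirlet7c-1 (77599657 to 77599750) lies in an intron of the noncoding gene Mir99ahg, 656 bases from Mir99a and 46522 bases from Mir125b-2. Mir99a and Mir100 are paralogs of each other, and both Mir125b genes encode the same mature miR-125b. Levels were 2757 and 5304 CPM for Mir100, 805 and 875 CPM for Mir125b-1, 17692 and 30627 CPM for Mir99a, and 419 and 384 CPM for Mir125b-2. In singly placed reads, Mir99a and Mir100 were higher than the let-7 gene beside them in both libraries. Mirlet7c-1 was above Mir125b-2 and Mirlet7a-2 below Mir125b-1. For Mirlet7a-2 and Mirlet7c-1, 22-base 5p reads matched 2 hairpins each, and the part of this in these orders was not tested.

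Mir99a and Mir100 shifted against their let-7 neighbours by nearly the same factor in singly placed reads. Reads with several places, 38.9% and 45.8% of the count tables of replicates 1 and 2, lie outside these ratios. Their part in the ratios and the changes was not tested. From replicate 1 to replicate 2 the ratio of Mir100 to Mirlet7a-2 rose 1.92-fold (1.74 to 2.13; Fisher's exact test, adjusted p = 3.92e-35), from 11.1 to 21.3 reads per read. The ratio of Mir99a to Mirlet7c-1 rose 1.91-fold (1.81 to 2.01; Fisher's exact test, adjusted p = 1.91e-134), from 17.5 to 33.3. The ratio of Mir125b-1 to Mirlet7a-2 changed by a factor of 1.09 (0.971 to 1.21; Fisher's exact test, adjusted p = 0.207). That of Mir125b-2 to Mirlet7c-1 changed by 1.01 (0.922 to 1.11; Fisher's exact test, adjusted p = 0.904).

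On chromosome 15, plus strand, Mirlet7c-2 (85706603 to 85706697) lies 621 bases from Mirlet7b, both in exons of the noncoding gene Lncppara. Mirlet7b, at 102692 and 109414 CPM, had 38.1 reads per read of Mirlet7c-2 in replicate 1 and 46.9 in replicate 2. This ratio rose by a factor of 1.23 (1.19 to 1.27; Fisher's exact test, adjusted p = 5.81e-39). For Mirlet7c-2, 22-base reads of either arm matched 2 hairpins, and the part of this in the size of the ratio was not tested. In all, 5 of the 9 mate ratios and 1 of the 3 copy shares differed between the libraries. Pairs of other genes were not tested, so no background share stands beside these counts. The test of single genes given below called 58.0% of the 474 genes tested, and 232 of the 295 that averaged at least 50 reads.

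**Figure D3:**
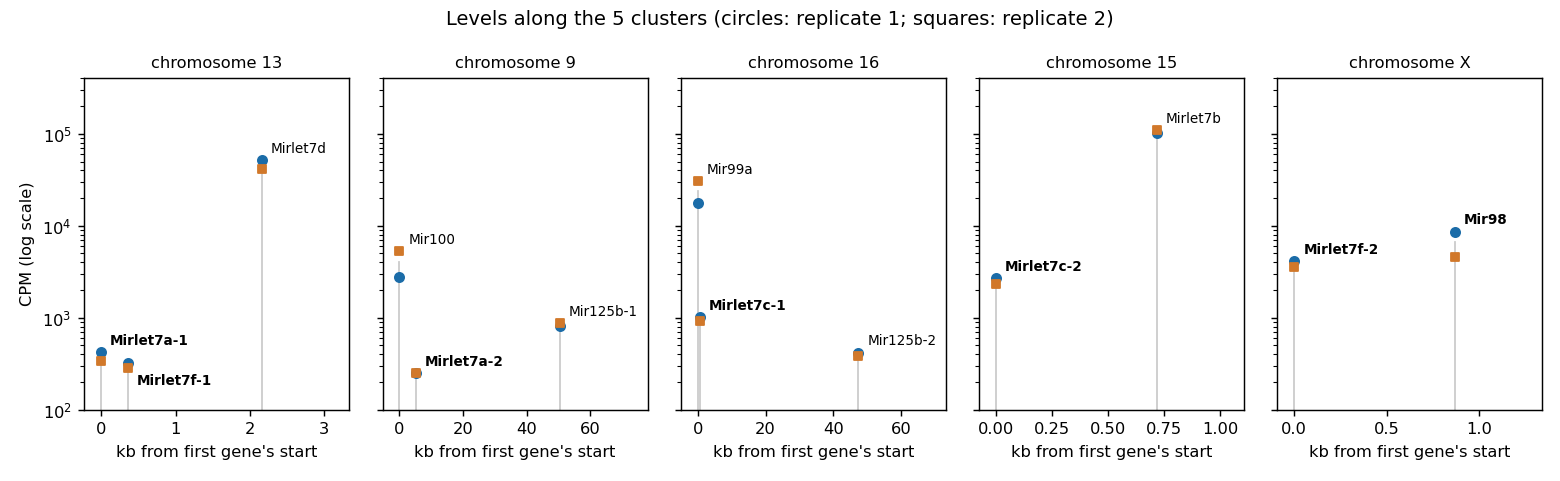
CPM on a log axis against distance in kb from the first gene's start for the 5 clusters, with replicate 1 as circles, replicate 2 as squares and members in bold. In singly placed reads, Mirlet7d and Mirlet7b stand far above the members beside them, and Mir98 above Mirlet7f-2. Mir99a and Mir100 are the mates that were higher in replicate 2 by the widest margin.

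**Figure D4:**
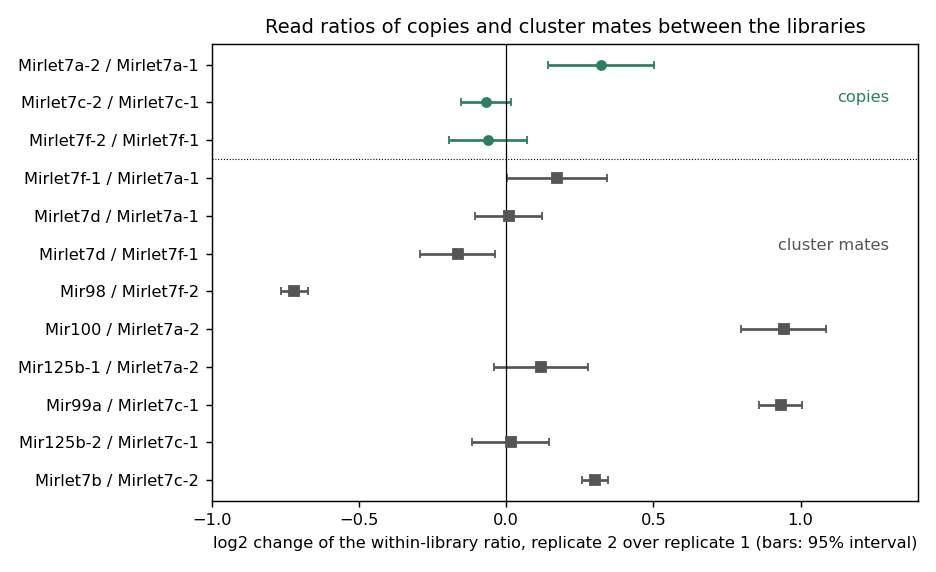
log2 change of the within-library read ratio from replicate 1 to replicate 2 for 3 copy pairs (circles) and 9 pairs of cluster mates (squares), with 95% intervals for counting error. Mir98 over Mirlet7f-2 lies farthest to the left, Mir100 over Mirlet7a-2 and Mir99a over Mirlet7c-1 farthest to the right, and the let-7c and let-7f copy pairs overlap 0.

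As shares of assigned reads, most members were slightly lower in replicate 2. In RNA from tissue, fewer cells of a type and less of an RNA per cell cannot be told apart. A two-sided exact binomial test on reads, Benjamini-Hochberg adjusted over all 474 genes with a summed count of at least 10, called 6 of the 7, all with the higher level in replicate 1. The same test called 58.0% of all genes in either direction, with 26.4% higher in replicate 1 and 31.6% in replicate 2. Its calls rise with read depth, and all 7 members averaged at least 50 reads. Among the 295 genes that did so, it called 232, with 107 higher in replicate 1 and 125 in replicate 2. The median log2 ratio of replicate 2 to replicate 1 was -0.21 over the 7 members, -0.27 over the 5 single-copy genes, of which 4 were called higher in replicate 1 and 1 lower there, and 0.04 over all genes tested.

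Mir98 moved most, with a level 1.90-fold higher in replicate 1 (exact 95% interval 1.87 to 1.94). Its log2 ratio of -0.93 was larger in size than that of 84.4% of 295 genes that averaged at least 50 reads. Mirlet7a-1 was 1.25-fold higher in replicate 1 (1.15 to 1.35), and Mirlet7f-2 and Mirlet7c-2 were each 1.16-fold higher there (1.13 to 1.18 and 1.12 to 1.19). Mirlet7f-1 was 1.11-fold higher in replicate 1 (1.01 to 1.21; exact binomial test, adjusted p = 0.0426), a call lost with no filter on low counts (0.0631). Mirlet7c-1 was 1.10-fold higher in replicate 1 (1.05 to 1.16; exact binomial test, adjusted p = 0.000284). Mirlet7a-2 differed by a factor of 1.00 (0.907 to 1.11). Apart from Mir98, the members' log2 ratios were larger in size than those of at most 47.5% of these genes, whose 5th and 95th percentiles were -0.997 and 1.301.

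These small differences depended on what the reads were divided by. Relative to every read in the count table, with unplaced reads and reads of several places included, the log2 ratio was -0.02 for Mirlet7f-2, -0.02 for Mirlet7c-2, 0.05 for Mirlet7c-1 and 0.04 for Mirlet7f-1, and none of these 4 was called. On that scale Mir98 (-0.74) and Mirlet7a-1 (-0.13) were still called higher in replicate 1, and Mirlet7a-2 (0.19) was called higher in replicate 2. The ratios of copies and mates above do not depend on this choice. The summed level of 3 red blood cell miRNA genes, Mir451a, Mir144 and Mir486, was also higher in replicate 1 (1176 and 339.7 CPM in replicates 1 and 2). So were those of the 5 hindbrain and spinal cord genes (84.0 and 49.9 CPM) and the 6 muscle and liver genes (273 and 218 CPM). Most of the muscle and liver sum was Mir206 (234 and 174 CPM), and Mir122 went the other way (37.9 and 43.9 CPM). In the hindbrain and spinal cord list Mir196a-2, with few reads, also went the other way (2.39 and 2.74 CPM). The summed level of the 10 neuronal genes was lower in replicate 1 (26571 and 35666 CPM). So were Mir128-1 (4326 and 10622 CPM), Mir128-2, Mir137, Mir9-1 and Mir9-3. Mir132 went the other way (12153 and 10636 CPM), as did Mir124a-1, Mir124a-2, Mir124a-3 and Mir9-2, which had few reads. The part of these lists in the members' difference was not tested.

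**Figure D5:**
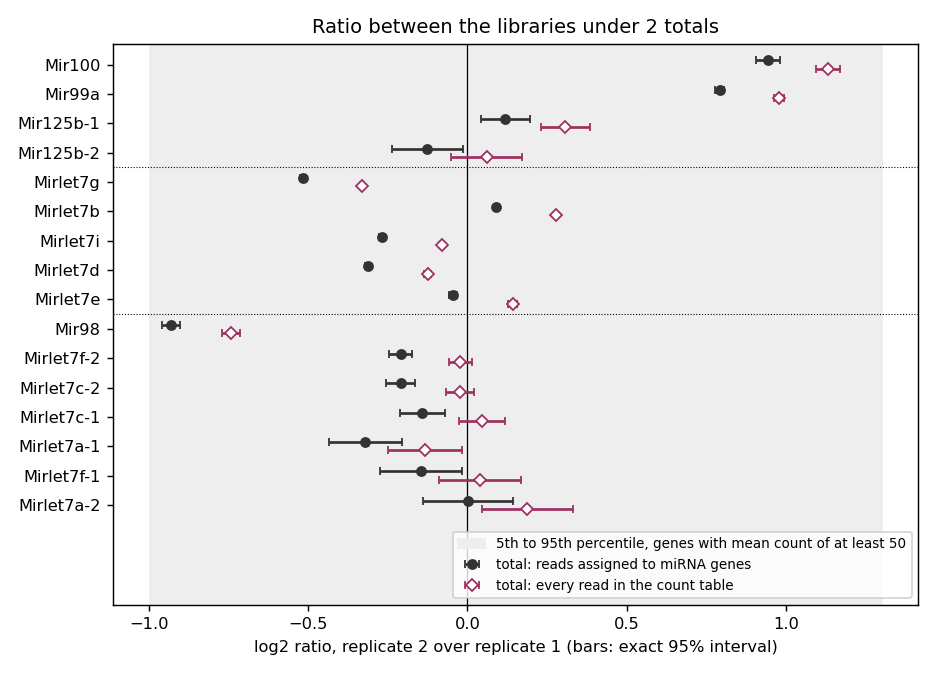
log2 ratio of replicate 2 to replicate 1 for the 7 members (bottom), the 5 single-copy let-7 genes (middle) and 4 cluster mates (top), with reads divided by the total assigned to miRNA genes (filled circles) or by every read in the count table (open diamonds). Bars are exact 95% intervals for counting error and the grey band spans the 5th to 95th percentile of genes that averaged at least 50 reads. Mir98 stays below 0 under both totals, and Mirlet7f-2, Mirlet7c-2, Mirlet7c-1 and Mirlet7f-1 overlap 0 under the second.

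Mirlet7f-1 could be counted only because strand was used. A predicted miRNA gene, Gm24111 (48537825 to 48537921 on chromosome 13), covers it on the opposite strand, and counted without strand Mirlet7f-1 had 0 reads in both libraries. Gm24111 itself had 0 sense reads in both libraries, and 0 antisense reads were counted at any of the 7 members.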

How the data were processed

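Small RNA libraries were sequenced from mouse hippocampus. The deposited counts are whole reads per miRNA gene, 1 table per library, on mm10 with GENCODE M21, per the file headers. Which aligner and counter were run is not given in the sources used here. Columns carry no names. Column 3 was read as sense, since it exceeded column 4 (225569 and 260937 reads) in both libraries. The 4 rows that name no gene held 69.5% and 65.3% of reads and were left out of totals. All 2202 identifiers matched the annotation. Sequences came from RefSeq (GRCm38.p6), where all 7 hairpins matched.

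Libraries were compared with exact binomial and Fisher's exact tests (threshold 0.05). The simulated data on which these tests were tried held counting error only. They cannot show how the tests behave when libraries vary beyond counting error. With 1 group no condition could be tested. Log2 ratios used a pseudocount of 1 CPM. A chi-square over genes was 390.1 times its degrees of freedom when it compared the 2 libraries, far beyond sampling noise. Members, pairs and lists were chosen with earlier results of these data known. The text names the members, their cluster mates, other let-7 genes, overlapping miRNA genes, the 3 genes likest to the most abundant member, and genes of 4 marker lists (neuron, hindbrain and spinal cord, red blood cells, muscle and liver). Alternatives were counts without strand, TMM from edgeR (4.0.16), DESeq2 (1.42.0) size factors, other totals, filters and pseudocounts, Holm's adjustment, and leaving out a replicate. Python 3.11.15, scipy 1.17.1, matplotlib 3.10.9, R 4.3.3 and RNAfold 2.7.2 were used.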

Additional observations from a re-analysis of the deposited data

Results flagged for a closer look

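Reads with several places are recorded in a row of their own, outside the counts of any gene that the comparisons used. They numbered 3734600 in replicate 1 and 4807740 in replicate 2. The tables do not divide them by miRNA, so the number that belongs to let-7a, let-7c or let-7f was not analysed here.

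Antisense reads at Gm24111, the predicted gene opposite Mirlet7f-1, numbered 934 in replicate 1 and 1050 in replicate 2. These equal the sense reads of Mirlet7f-1 in each library, and the same reads are counted in both places.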

How the results depend on the processing

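With totals over every read in the count table, 3 in place of 6 members were called, 2 of them higher in replicate 1. Of the 474 genes tested, 267 in place of 275 were called, 73 of them higher in replicate 1. Of all genes called, 72.7% in place of 54.5% were higher in replicate 2. Under that total the log2 ratio of Mirlet7c-1 turned to 0.046 and that of Mirlet7f-1 to 0.040, Mirlet7c-2 (-0.023) and Mirlet7f-2 (-0.022) were no longer called, and Mirlet7a-2 (0.186) became called. The mean CPM over that total was 123.3 for Mirlet7a-1, 81.2 for Mirlet7a-2, 314.1 for Mirlet7c-1, 815.9 for Mirlet7c-2, 98.7 for Mirlet7f-1, 1257 for Mirlet7f-2 and 2110 for Mir98. Counted without strand, Mirlet7f-1 was at 0 CPM and drops out of the ratios, Mirlet7a-2 was at 269 CPM and Mirlet7c-1 at 1043.5 CPM. The same 6 members were called higher in replicate 1 under TMM, DESeq2 size factors, totals without the most abundant gene, totals without the 7 members and a mean count of at least 50. Pair results kept their calls with Holm's adjustment, except the ratio of Mirlet7d to Mirlet7f-1, which was lost. Without strand, pairs with Mirlet7f-1 could not be tested because it had 0 reads, and the other pairs kept their calls. Leaving out a replicate leaves the other's level: from 4544.8 to 8654 CPM for Mir98 and from 248.6 to 248.9 CPM for Mirlet7a-2. No paired analysis was possible because there was only 1 group. With 2 libraries, no statement here extends beyond these libraries.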
